A study of Nannochloropsis oceanica with 15 samples.

Results

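The draft genome of Nannochloropsis oceanica strain IMET1, a unicellular alga of the sea, comes in pieces called scaffolds. The gene models described here are those on very small scaffolds, which were taken as the scaffolds that hold 1 to 4 distinct models in the deposited gene table. They number 379 of 9756 models and lie on 220 of 284 scaffolds. The 1 manually added model, alone on isotig00738, was left out. Of the 220 scaffolds, 83 hold 1 model, 119 hold 2, 14 hold 3 and 4 hold 4. They are set beside the 8448 models on the 29 scaffolds of 100 or more models, called large scaffolds below.

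The study asked how gene expression in these cells changes with the colour of light. Wild-type IMET1 cells grew in column bioreactors under continuous white light and were then moved to red or blue light. RNA was sampled after 12 h and 24 h of red light, after 12 h and 24 h of blue light, and at 0 h in white light, with 3 libraries in each of the 5 groups. White light was sampled at 0 h, so a difference from it joins colour and time. All groups share the strain, the medium, air-level CO2 and 25 °C, and all were exposed to about 80 µmol photons per square metre and second.

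A scaffold is a run of assembled sequence, and a draft genome has many short ones that the assembler could not join to longer ones. Such pieces can hold repeats, near-identical copies of genes, second alleles or gene-poor ends, and a gene that crosses the end of a piece is predicted without the part that lies beyond it. Reads that come from the missing part, or that match several copies, can be lost or shared out in mapping. Chlorophyll absorbs both red and blue light, and algae of this lineage also read blue light through dedicated photoreceptors. The deposited files give no gene names for the members, and 0 of the 160 genes of the reference table matched their IDs, so the models are named by ID and no role is given to them.

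The values are FPKM, fragments per kilobase of exon divided by a total per library, a unit that sets models of unlike length on 1 scale. The libraries held between 3130000 and 6440000 fragments in gene models, recovered from the steps of the low FPKM values. Nothing in the labels says that replicate libraries are from different cultures. P-values therefore describe how much libraries vary within groups, pooled over all 5 groups, which could be technical variation. Red 24 h library 1 stood apart from its group. Compared by its fragments with libraries 2 and 3, it gave a chi-square of 53.4 and 86.2 per degree of freedom. Libraries 2 and 3 of red 24 h gave 5.40 against each other, which was also above the pairs of the other groups, at 1.32 to 1.97. Red 24 h library 1 enters each result below except values given without it. That holds for tests between other groups too, since 1 spread per model was estimated over all 5 groups. A fit of the groups compared alone uses only their own libraries. In whole cultures, fewer cells of a kind and less RNA per cell cannot be told apart.

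Small-scaffold models were shorter than the models of large scaffolds and often began exactly where their scaffold began. Positions are those of the deposited gene table, which is named IMET v2 and lists exons only. Their median exon length was 1041 nt, against 1783 nt on large scaffolds. The median number of exons was 2 in both sets, and 31.1% of small-scaffold models had a single exon, against 31.7% on large scaffolds. The first base of the model was base 1 of the scaffold for 134 of 379 small-scaffold models (35.4%), against 13 of 8448 on large scaffolds (0.154%). Large scaffolds hold many more models each, which lowers such a share per model. Counted per scaffold, a model began at base 1 on 60.9% of the small scaffolds and 44.8% of the large ones. On scaffolds of 5 to 99 models it was 41.2%. The last base of the last model stood at a median of 2681 on small scaffolds, with a range of 861 to 17411, against a median of 932444 on large ones. The lengths of the scaffolds themselves were not used here, so how many models run up to the far end is not known.

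The 83 models alone on their scaffold differed in build from those with company. They had a median of 1597 nt and 4 exons, 10.8% had a single exon, and 53.0% began at base 1. On scaffolds of 2 models the medians were 921 nt and 2 exons, 35.7% had a single exon, and 31.9% began at base 1. Strands were balanced, with 187 small-scaffold models on the plus strand and 192 on the minus strand. At the boundary of the rule, the 16 models on scaffolds of 4 had a median length of 993.5 nt and a median mean level of 8.77 FPKM, and the 5 models on the 1 scaffold of 5 had 980 nt and 32.1 FPKM.

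The small-scaffold models were expressed about as widely as those of large scaffolds but at a lower median level. That level was not particular to them, since the median of each model's mean was 17.2 FPKM on small scaffolds, 17.1 FPKM over the 928 models on scaffolds of 5 to 99 models, and 24.4 FPKM on large scaffolds. The condition for testing a model, at least 1 FPKM in 3 or more libraries, was met by 374 of the 379 (98.7%), and on large scaffolds by 8334 of 8448 models (98.7%). Per library, the median small-scaffold model stood at 11.6 to 19.0 FPKM, against 18.6 to 26.0 FPKM on large scaffolds. On the log2(FPKM + 1) scale the small-scaffold median lay below the large-scaffold median in 15 of 15 libraries. The difference averaged -0.46 ± 0.09 (SD over 15 libraries) with a range of -0.63 to -0.34. Levels above 100 FPKM were reached by 35 small-scaffold models (9.23%), against 971 on large scaffolds (11.5%). Levels below 2 FPKM were found for 13 small-scaffold models (3.43%), against 244 on large scaffolds (2.89%).

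**Figure D1:**
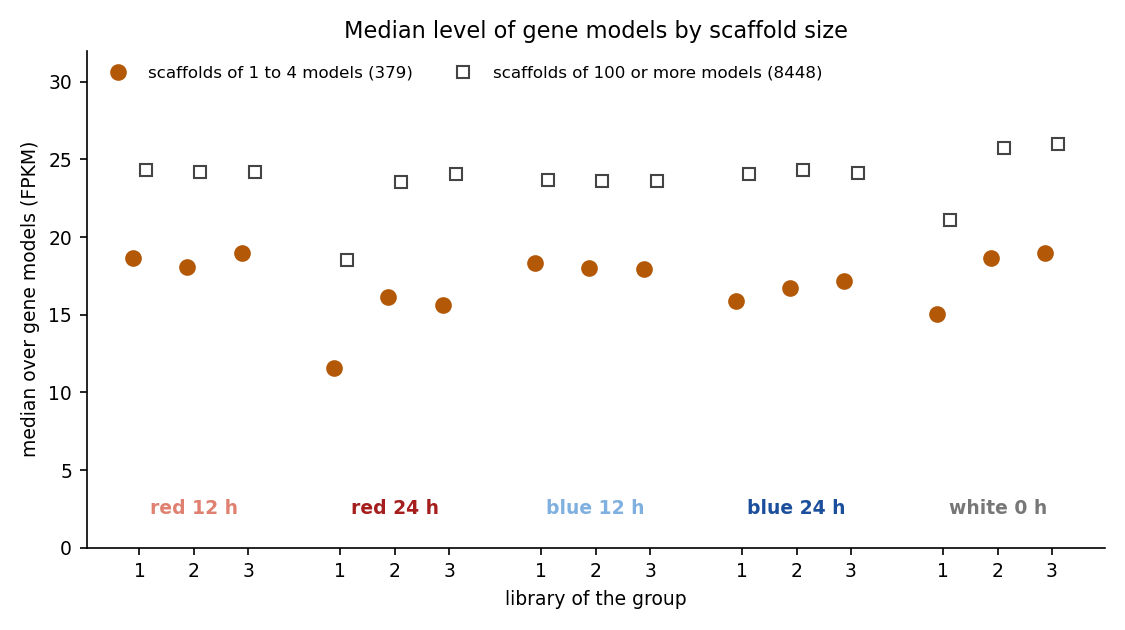
Median FPKM over gene models in each of the 15 libraries, for the 379 models on scaffolds of 1 to 4 models (filled circles) and the 8448 models on scaffolds of 100 or more (open squares), with the libraries of each group numbered on the horizontal axis. The circle lies below the square in 15 of 15 libraries, and both are lowest in red 24 h library 1, at 11.6 and 18.6 FPKM.

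The difference in level varied with model length and was narrowest among the shortest models. Among models above 750 and up to 1000 nt the median level on the log2(FPKM + 1) scale was 3.95 on small scaffolds and 5.09 on large ones. Above 1000 and up to 1500 nt it was 4.03 on small and 4.95 on large scaffolds, and above 2000 nt 3.57 on small and 4.28 on large ones. Up to 750 nt the medians were closer, at 4.64 on small and 4.88 on large scaffolds. Over models above 750 and up to 1500 nt together, a range chosen after the values were seen, the difference was -0.96, against -0.49 over all lengths when each model's 5 group means are averaged first. These medians describe the 2 sets of models and were not tested, since models are not replicates of a condition.

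The gap between small and large scaffolds was wider at 24 h than at 12 h in both colours. In red 24 h it averaged -0.58 ± 0.06, against -0.37 ± 0.03 in red 12 h (SD, n = 3 libraries each). In blue 24 h it averaged -0.52 ± 0.05, against -0.37 ± 0.01 in blue 12 h. White 0 h stood between them, at -0.45 ± 0.01. In each colour the 3 libraries of 24 h lay below the 3 of 12 h without overlap. The share of all fragments that fell in small-scaffold models was 2.09% ± 0.0165 after 12 h and 2.11% ± 0.216 after 24 h of red light (SD, n = 3 each). After 12 h of blue light it was 2.09% ± 0.0105, after 24 h 1.96% ± 0.0123, and in white light 1.77% ± 0.0175. The 3 white libraries were the lowest of the 15 in this share and the highest in the share of the FPKM sum, which counts fragments per length of model. That share was 3.18% ± 0.0300 in red 12 h and 2.96% ± 0.0393 in red 24 h. After 12 h of blue light it was 3.15% ± 0.00265, after 24 h 2.98% ± 0.00700, and in white 0 h 3.27% ± 0.0480.

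Less sequence stood behind each of these models. The median small-scaffold model rested on 80 fragments per library, against 201 on large scaffolds. Replicates differed more: the median within-group SD of log2(FPKM + 1) was 0.142 for small-scaffold models and 0.0901 for large-scaffold models in red 12 h, and 0.132 and 0.0809 in blue 24 h. In red 24 h, with library 1 in it, these medians were 0.513 on small and 0.370 on large scaffolds. The median standard error of a difference between groups was 0.23 on small scaffolds and 0.18 on large ones, on the log2 scale.

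The change from white light was tested with limma over all 9601 models that met the condition, with p-values adjusted over all of them and a threshold of 0.05. About as many small-scaffold models changed as remained uncalled. In red 12 h 178 of 374 passed, of which 106 were higher than in white (28.3%) and 72 lower (19.3%). Over all tested models 32.8% were higher and 24.6% lower. In red 24 h 189 passed, 81 higher (21.7%) and 108 lower (28.9%), against 28.8% higher and 30.1% lower over all models. In blue 12 h 191 passed, 111 higher (29.7%) and 80 lower (21.4%), against 32.3% and 26.1% over all models. Blue 24 h had 164, 90 higher (24.1%) and 74 lower (19.8%), against 31.1% and 23.9% over all models.

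In each of these 4 comparisons the called share was below that of all models, in either direction. The sizes of the differences were close at 12 h. The median absolute log2 difference from white in red 12 h was 0.54 on small scaffolds and 0.54 on large ones. In blue 12 h it was 0.55 on small and 0.55 on large scaffolds. At 24 h it was smaller on small scaffolds, at 0.50 against 0.57 in red and 0.49 against 0.52 in blue. Differences of 2-fold or more that also passed the test were found in red 12 h for 35 small-scaffold models upward and 50 downward. These were 9.36% and 13.4% of the tested models, against 8.98% upward and 15.7% downward on large scaffolds. Which direction led depended on scaling, on red 24 h library 1 and on white 0 h library 1, on small scaffolds and over all models alike. Without red 24 h library 1, 110 small-scaffold models were higher and 105 lower in red 24 h, against 3619 higher and 2830 lower over all models. The counts without it were 156 higher and 92 lower in red 12 h, 160 and 97 in blue 12 h, and 141 and 96 in blue 24 h. Over all models they were 4213 and 2817, 4069 and 2945, and 4017 and 2820. The called shares on small scaffolds stayed below those of all models. White 0 h library 1 had a median of 20.3 FPKM over all models, against 24.7 and 25.0 in white 0 h libraries 2 and 3. With it left out as well, a choice made after the data were seen, red 24 h had 94 higher and 123 lower. Red 12 h then had 127 higher and 110 lower, blue 12 h 132 and 106, and blue 24 h 114 and 109. Over all models red 24 h then had 3239 higher and 3259 lower, and red 12 h 3742 and 3137. Blue 12 h had 3640 and 3311, and blue 24 h 3563 and 3242. With each library at the same median, red 24 h had 108 higher and 103 lower, and by quantile normalization 143 higher and 99 lower. Over all models these were 3596 and 2723 at the same median, and 3768 and 2706 by quantile normalization. With each library at the same sum of FPKM without the 50 most abundant models, 77 small-scaffold models were higher and 83 lower in red 12 h, and 75 higher and 86 lower in blue 12 h. That scaling gave 53 higher and 87 lower in blue 24 h, and in red 24 h 41 higher and 147 lower. Over all models it gave 2340 higher and 2612 lower in red 12 h, and 2270 and 2779 in blue 12 h. It gave 2068 and 2717 in blue 24 h, and 1675 and 3932 in red 24 h. It moved the median difference over all models in red 24 h to -0.31, against -0.01 as deposited.

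**Figure D2:**
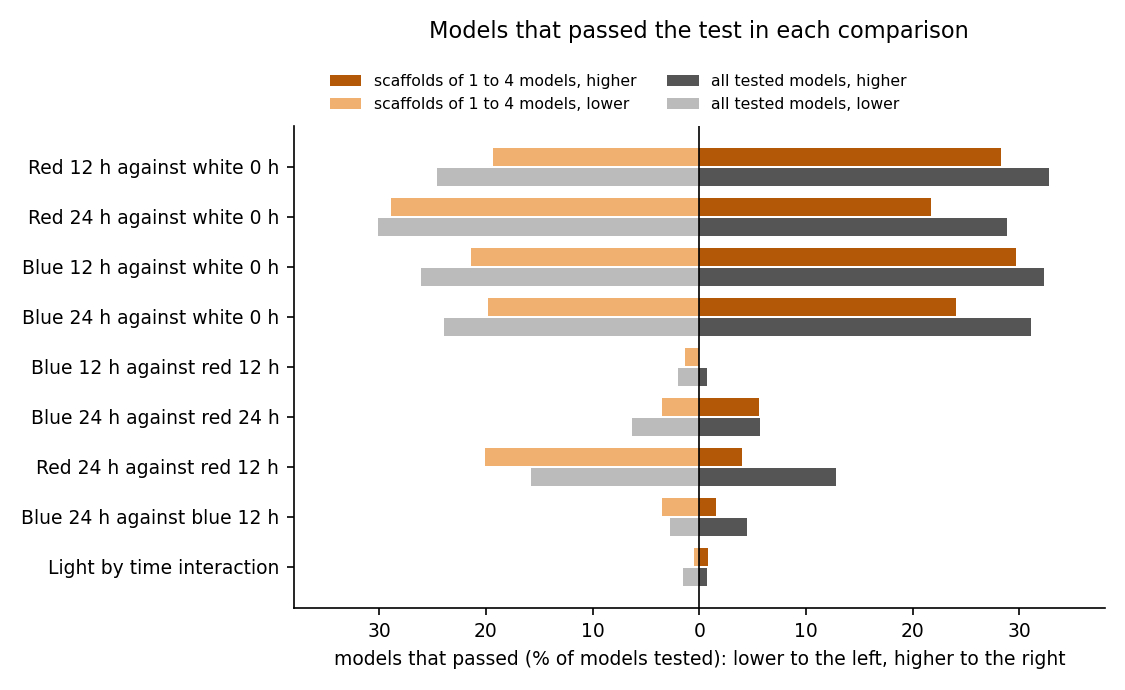
Share of tested models that passed the limma test (adjusted p below 0.05) in each comparison, for models on scaffolds of 1 to 4 models (upper bar of each pair, 374 tested) and for all models (lower bar, 9601 tested), with lower calls drawn to the left and higher calls to the right. The upper bars are shorter in both directions in each comparison with white, and in red 24 h against red 12 h the small-scaffold calls lie mostly to the left, at 20.1% lower and 4.01% higher.

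These shares were similar whatever the number of models on the scaffold. In red 12 h 40 of 81 models alone on their scaffold passed (49.4%), against 112 of 238 on scaffolds of 2 (47.1%), 18 of 39 on scaffolds of 3 (46.2%) and 8 of 16 on scaffolds of 4. On the scaffold of 5, just outside the rule, 2 of 5 passed. The shares in blue 24 h were 45.7% for models alone, 42.4% on scaffolds of 2, 48.7% on scaffolds of 3 and 43.8% on scaffolds of 4. Models that began at base 1 had a median log2 difference of 0.20 in red 12 h, against 0.19 for the other small-scaffold models. In red 24 h these medians were -0.10 and -0.05, in blue 12 h 0.14 and 0.21, and in blue 24 h 0.05 and 0.14.

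The largest rises from white among small-scaffold models that passed, did not overlap and averaged at least 10 FPKM in a group were in scaffold00210.g6057 and scaffold00114.g4133. The first is a model of 1 exon on the minus strand of scaffold00210, bases 1 to 971, so that its 3′ end faces the scaffold start. It had 78.8, 76.0 and 77.7 FPKM in red 12 h, 89.1, 43.2 and 40.6 in red 24 h, 78.3, 85.5 and 73.6 in blue 12 h, 144.1, 149.1 and 137.4 in blue 24 h, and 3.29, 5.02 and 6.25 in white 0 h. The 12 red and blue libraries lay above the 3 white ones, which rested on 20 to 29 fragments each. Its log2 difference from white was 4.66 ± 0.24 in blue 24 h (SE, limma adjusted p = 4.08e-10). Its neighbour scaffold00210.g6058, 4 exons on the same strand at 1093 to 2501, averaged 32.9 ± 3.03 FPKM in blue 24 h and 21.1 ± 3.75 in white 0 h (SD, n = 3 each). Its log2 difference was 0.63 ± 0.17 (adjusted p = 0.00476), the same direction at a smaller size.

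The model scaffold00114.g4133 (2250 to 2985, minus strand, 3 exons, 436 nt) had 403.0, 348 and 372 FPKM in red 12 h, 1107, 554 and 475 in red 24 h, 229.6, 217 and 221 in blue 12 h, 354, 322 and 307 in blue 24 h, and 88.7, 88.4 and 93.2 in white 0 h. The groups of red and blue light did not overlap white, and red 24 h library 1 was far above its 2 companions. The log2 difference of red 24 h from white was 2.87 ± 0.22 (limma adjusted p = 3.88e-08), and 2.50 without red 24 h library 1. Its neighbour scaffold00114.g4132 (1 to 2001, minus strand, 3 exons) went the other way. It averaged 1.00 ± 0.28 FPKM in red 24 h and 5.61 ± 1.26 in white 0 h, a log2 difference of -1.71 ± 0.26 (adjusted p = 5.60e-05), with 3 to 8 fragments per library in red 24 h.

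The largest falls by the same rule were in models that are alone on their scaffold. On scaffold00012 the model scaffold00012.g926 (4 to 2417, plus strand, 2 exons, 1924 nt) had 2.14, 2.00 and 3.91 FPKM in red 12 h, 5.54, 9.47 and 11.5 in red 24 h, 3.21, 2.86 and 3.37 in blue 12 h, 2.31, 3.42 and 3.65 in blue 24 h, and 66.5, 78.3 and 77.2 in white 0 h. It was low in all 12 red and blue libraries, and least so in red 24 h, whose 3 libraries lay above those of the other 3 groups of coloured light. Against white, red 12 h had a log2 difference of -4.38 ± 0.24 (limma adjusted p = 6.90e-10).

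On scaffold00311 the model scaffold00311.g8842 (1 to 2031, minus strand, 7 exons, 895 nt) had 7.85, 3.90 and 3.76 FPKM in red 12 h, 18.8, 37.0 and 23.4 in red 24 h, 5.10, 6.24 and 4.57 in blue 12 h, 13.4, 10.5 and 11.3 in blue 24 h, and 101.4, 121 and 133 in white 0 h. It was lowest at 12 h in both colours and stood higher at 24 h, without reaching white. Red 12 h differed from white by -4.33 ± 0.25 on the log2 scale (limma adjusted p = 1.55e-09). In red 24 h it was higher than in red 12 h by 2.16 ± 0.25 (adjusted p = 5.13e-05), the largest rise over time among the small-scaffold models that met the naming rule. At 24 h of blue light it was higher than at 12 h by 1.02 ± 0.25 (adjusted p = 0.0238).

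**Figure D3:**
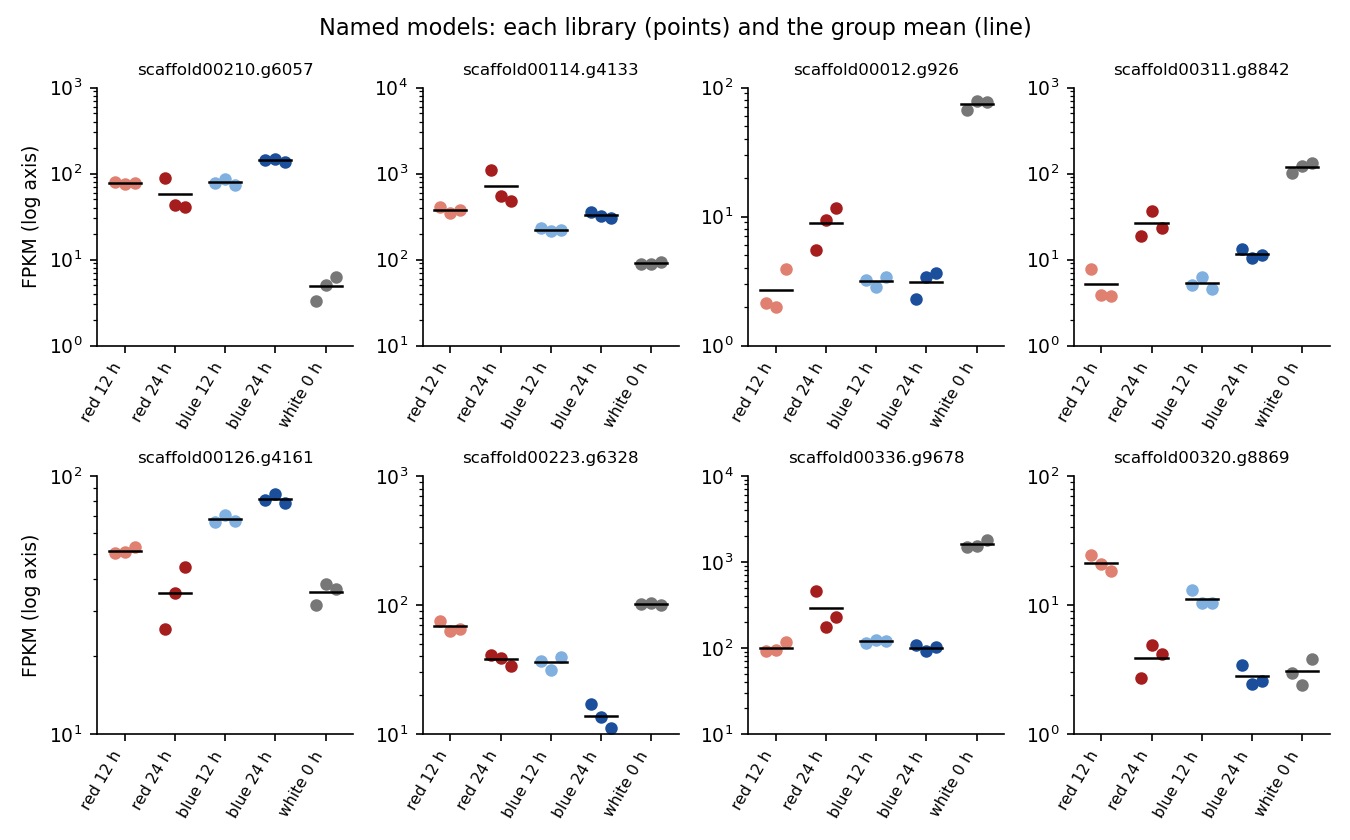
FPKM of 8 small-scaffold models in each library (points) with the mean of the 3 libraries (line), on log axes with their own range per panel. The 2 panels at the upper left show levels in coloured light above white, scaffold00012.g926 and scaffold00311.g8842 show levels far below white, and scaffold00223.g6328 stands lowest in blue 24 h, at 17.0, 13.5 and 11.1 FPKM.

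Blue light was compared with red at the same hour, which leaves out the time since the switch. At 12 h few models separated the colours. In blue 12 h 0 small-scaffold models were higher than in red 12 h and 5 were lower (1.34% of 374), against 0.719% higher and 2.04% lower over all models. Before adjustment, 30 small-scaffold models had a p below 0.05 (8.02%), against 13.8% of all models. Red 24 h library 1 is in neither group but enters the shared spread. Without it 39 passed (10.4%), 12 higher and 27 lower, against 16.0% of all models. The count was 2 or 3 without any 1 library of red 12 h or blue 12 h. It was also 2 or 3 without blue 24 h library 1 or 3, or without white 0 h library 2 or 3. In a fit of the 2 groups alone 68 passed (18.2%), 35 higher and 33 lower, against 25.5% of all models.

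The 5 models were named because their number is small, after their values were seen. The first, scaffold00242.g6391 (1326 to 2235, plus strand), had 12.9, 18.8 and 15.05 FPKM in blue 12 h and 33.7, 32.3 and 43.2 in red 12 h. The log2 difference was -1.18 ± 0.28 (limma adjusted p = 0.0364). The next, scaffold00292.g8311 (946 to 1762, plus strand), had 11.4, 11.1 and 8.60 FPKM in blue 12 h and 24.2, 23.3 and 18.4 in red 12 h. In both models the groups did not overlap, and scaffold00292.g8311 was higher in red 12 h than in white 0 h, where it had 10.3, 15.7 and 15.04 FPKM. Its difference between the colours was -1.01 ± 0.17 (adjusted p = 0.00468).

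The model scaffold00212.g6061 (1 to 1256, plus strand) had 11.7, 12.4 and 9.35 FPKM in blue 12 h and 23.0, 19.7 and 22.7 in red 12 h. The groups did not overlap, and the log2 difference was -0.91 ± 0.22 (limma adjusted p = 0.0406). In blue 24 h it stood at 18.1, 17.3 and 22.5 FPKM, above all 3 libraries of blue 12 h. The models scaffold00223.g6328 and scaffold00320.g8869, described below, had log2 differences of -0.91 ± 0.15 and -0.86 ± 0.20 (adjusted p = 0.004 and 0.0314). The calls of scaffold00212.g6061 and scaffold00242.g6391 were lost in 12 of 28 alternatives and that of scaffold00320.g8869 in 8, with the same direction throughout.

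At 24 h 34 small-scaffold models differed between the colours, of which 21 were higher in blue 24 h than in red 24 h (5.61%) and 13 lower (3.48%). Over all models 5.67% were higher and 6.34% lower. When library 1 of red 24 h was left out the small-scaffold count was 55 (14.7%), of which 23 were higher and 32 lower, and over all models 18.1% passed, 682 higher and 1058 lower. With library 2 of that group left out it was also 55, with 36 higher and 19 lower, against 15.9% of all models. With library 3 left out it was 139 (37.2%), with 93 higher and 46 lower, against 35.3% of all models. Leaving out library 1, 2 or 3 of blue 24 h gave 17, 13 and 15. Which direction led changed with the libraries kept, and in a fit of the 2 groups alone 1 model passed.

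Among the models that met the naming rule (passed, no overlap between the groups, and 10 FPKM or more on average in 1 of them), the largest rises in blue 24 h over red 24 h were in scaffold00210.g6057 and scaffold00126.g4161. For scaffold00210.g6057, whose values are given above, the log2 difference was 1.39 ± 0.24 (limma adjusted p = 0.00207), and the lowest blue library, at 137.4 FPKM, lay above the highest red one, at 89.1. The model scaffold00126.g4161 is alone on its scaffold (8 to 1081, minus strand, 2 exons). It had 80.5, 85.3 and 78.5 FPKM in blue 24 h, against 25.6, 35.2 and 44.5 in red 24 h, and 66.1, 70.8 and 67.1 in blue 12 h, against 50.2, 50.7 and 52.9 in red 12 h. Its 6 blue libraries lay above its 6 red ones and above the 3 white ones, which had 31.7, 38.3 and 36.5 FPKM. The log2 difference at 24 h was 1.23 ± 0.15 (adjusted p = 0.000201). In a fit of the 2 groups alone the 24 h calls of scaffold00210.g6057 and scaffold00126.g4161 were lost (limma adjusted p = 0.114 and 0.0807).

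By the same rule the largest falls in blue 24 h against red 24 h were in scaffold00223.g6328 and scaffold00336.g9678. The model scaffold00223.g6328 (111 to 1124, plus strand, 2 exons) had 17.0, 13.5 and 11.1 FPKM in blue 24 h and 40.7, 38.9 and 33.9 in red 24 h. At 12 h it had 36.9, 31.6 and 39.5 FPKM in blue light and 75.8, 63.3 and 65.7 in red light, and in white 0 h it had 101.9, 104.0 and 99.7. The order of the levels was white 0 h, then red 12 h, then red 24 h and blue 12 h, which overlapped, then blue 24 h. The log2 difference of blue 24 h from red 24 h was -1.40 ± 0.15 (limma adjusted p = 5.01e-05), and that of blue 24 h from blue 12 h was -1.33 ± 0.15 (adjusted p = 6.84e-05). Both differences passed in 28 of 28 alternatives. Its neighbour scaffold00223.g6329 (1766 to 2674, plus strand, 2 exons) was also lowest in blue 24 h, at 2.11 ± 0.52 FPKM, against 4.49 ± 2.81 in red 24 h and 42.8 ± 5.21 in white 0 h. Its log2 difference of blue 24 h from blue 12 h was -1.34 ± 0.30 (adjusted p = 0.0142), while its difference between blue 24 h and red 24 h did not pass (-0.70 ± 0.30, adjusted p = 0.130).

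The model scaffold00336.g9678 (1 to 439, plus strand, 1 exon) had its highest level in white light. It had 109.1, 92.5 and 102.0 FPKM in blue 24 h, 458, 178 and 228 in red 24 h, 114, 122 and 122 in blue 12 h, 91.3, 94.9 and 118 in red 12 h, and 1499, 1531 and 1827 in white 0 h. Red 24 h lay above the other 9 libraries of coloured light, and library 1 of that group far above libraries 2 and 3. The log2 difference of blue 24 h from red 24 h was -1.38 ± 0.24 (limma adjusted p = 0.00243), and -0.99 without red 24 h library 1. In a fit of these groups alone the model did not pass (limma adjusted p = 0.151). Its neighbour scaffold00336.g9679 (756 to 2333, plus strand, 2 exons) averaged 2.15 ± 0.45 FPKM in blue 24 h, 1.81 ± 0.94 in red 24 h and 11.1 ± 2.79 in white 0 h, so both models of the scaffold had their highest level in white.

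The change with time in 1 colour was measured as 24 h against 12 h. In red light 90 small-scaffold models passed, 15 higher at 24 h (4.01%) and 75 lower (20.1%). Over all models 12.8% were higher and 15.8% lower. The median log2 difference was -0.25 over small-scaffold models, -0.08 over large-scaffold models and -0.08 over all models tested. Without red 24 h library 1 the small-scaffold calls were 39 higher and 72 lower, against 1655 higher and 1310 lower over all models, and the medians were -0.09 on small scaffolds and 0.01 over all models. In blue light 19 small-scaffold models passed, 6 higher (1.60%) and 13 lower (3.48%), against 4.48% higher and 2.76% lower over all models. The medians in blue were -0.05 on small and 0.02 on large scaffolds.

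Lower calls outnumbered higher ones on small scaffolds in both colours, while in blue the higher calls led over all models. Lower calls were in the majority in all 28 alternatives run for each colour. In red light the count ranged between 43 and 168 when single libraries were left out. The highest count, 168 (44.9%), came without red 24 h library 3, against 46.6% of all models, and leaving out library 3, 2 or 1 of red 12 h gave 43, 44 and 59. A fit of the 2 groups alone passed 4 models. In blue light leaving out red 24 h library 1 gave 88 models (23.5%), 31 higher and 57 lower, against 25.5% of all models, and leaving out library 3 of that group gave 29. The count was 5 without library 1 or 3 of blue 24 h, 8 without library 2 of that group or any 1 library of blue 12 h, and 11 without red 12 h library 2.

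The largest fall over time by the naming rule was in scaffold00320.g8869, on a scaffold of 4 models (6648 to 11821, minus strand, 4 exons, 1394 nt). It had 2.71, 4.90 and 4.14 FPKM in red 24 h and 24.4, 20.8 and 18.3 in red 12 h, 3.43, 2.43 and 2.59 in blue 24 h and 13.0, 10.4 and 10.3 in blue 12 h, and 2.95, 2.41 and 3.83 in white 0 h. It was high at 12 h in both colours, higher in red than in blue, and near the white level at 24 h in both. The log2 difference of red 24 h from red 12 h was -2.19 ± 0.20 (limma adjusted p = 4.97e-06), and that of blue 24 h from blue 12 h was -1.68 ± 0.20 (adjusted p = 0.000117).

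The other 3 models of scaffold00320 had levels of their own. The nearest, scaffold00320.g8870 (12106 to 13730, plus strand, 4 exons), had the opposite course, at 6.02 ± 2.80 FPKM in red 24 h and 1.25 ± 0.23 in red 12 h, with 18.9 ± 4.14 in white 0 h. It was higher in red 24 h than in red 12 h by 1.55 ± 0.30 on the log2 scale (limma adjusted p = 0.00257). The outer models scaffold00320.g8866 (1 to 1041) and scaffold00320.g8871 (14513 to 15510) averaged 4.33 ± 2.70 and 3.37 ± 1.73 FPKM in red 24 h, against 9.98 ± 2.85 and 2.89 ± 1.77 in red 12 h. The first was lower in red 24 h with a log2 difference of -1.12 ± 0.40 (adjusted p = 0.0478), and the second did not pass (0.17 ± 0.37, adjusted p = 0.730).

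The second named rise over time was in scaffold00336.g9678, at the levels given above. The log2 difference of red 24 h from red 12 h was 1.39 ± 0.24 (limma adjusted p = 0.00133), and 1.00 without red 24 h library 1. In a fit of these groups alone the model did not pass (limma adjusted p = 0.0929). In blue light its difference between 24 h and 12 h did not pass (-0.24 ± 0.24, adjusted p = 0.674).

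Whether the change over time differed between the colours was tested as an interaction. In 5 small-scaffold models it passed, 3 with a more positive change in blue (0.802%) and 2 with a more negative one (0.535%), against 0.74% and 1.54% over all models. Before adjustment 52 small-scaffold models had a p below 0.05 (13.9%), against 17.0% of all models. Leaving out red 24 h library 1 gave 22 models (5.88%, against 7.82% of all models) and leaving out red 24 h library 3 gave 44 (11.8%, against 10.9%), while leaving out library 3 of blue 12 h or of blue 24 h gave 0. The count was 1 to 3 without any 1 library of red 12 h or any other library of blue 12 h and blue 24 h, and 2 without white 0 h library 2 or 3.

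These 5 models too were named after their values were seen, because they are few. The interaction was -1.63 ± 0.34 in scaffold00336.g9678 (limma adjusted p = 0.0206), -1.43 ± 0.33 in scaffold00012.g926 (0.0380) and 1.37 ± 0.34 in scaffold00210.g6057 (0.0499), on the log2 scale. All 3 are described above. In scaffold00065.g2189 (1796 to 3600, plus strand, 2 exons) the levels were 13.4, 11.9 and 10.2 FPKM in blue 24 h, 12.0, 8.89 and 11.0 in blue 12 h, 3.67, 7.82 and 10.1 in red 24 h, and 18.9, 17.0 and 17.3 in red 12 h. Blue overlapped between the hours, while red 24 h lay below red 12 h in each library. The interaction was 1.43 ± 0.35 (adjusted p = 0.0464). The low model scaffold00045.g2113 (836 to 1480, plus strand, 1 exon) averaged 3.01 ± 0.58 FPKM in blue 24 h and 1.14 ± 0.29 in blue 12 h, against 0.53 ± 0.62 in red 24 h and 2.40 ± 1.06 in red 12 h. It rested on 0 to 12 fragments per library in these 4 groups, and its interaction was 2.08 ± 0.43 (adjusted p = 0.0176). These calls were lost in 6 of 27 alternatives for scaffold00045.g2113 and, of 28, in 7 for scaffold00336.g9678, 14 for scaffold00012.g926, 17 for scaffold00065.g2189 and 18 for scaffold00210.g6057.

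The lower values in red 24 h went with model length differently on small and large scaffolds. In red 24 h library 1, set against the mean of red 12 h, the median log2 difference of small-scaffold models was -0.71 up to 750 nt, -0.39 above that and up to 1000 nt, -0.59 up to 1500 nt, -0.63 up to 2000 nt and -0.55 above 2000 nt. All 5 medians were below 0, with no order by length. Large-scaffold models in the same bands had medians of 0.61, 0.31, 0.04, -0.28 and -0.58, so that short ones were higher than in red 12 h and long ones lower. Across models, which are not independent and share the library, Spearman's rho of this difference with exon length was -0.03 over 374 small-scaffold models and -0.35 over 8334 large-scaffold models. In the mean of libraries 2 and 3 the small-scaffold medians ran from -0.25 to -0.03 over the 5 bands, and the large-scaffold medians from -0.08 to 0.13.

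**Figure D4:**
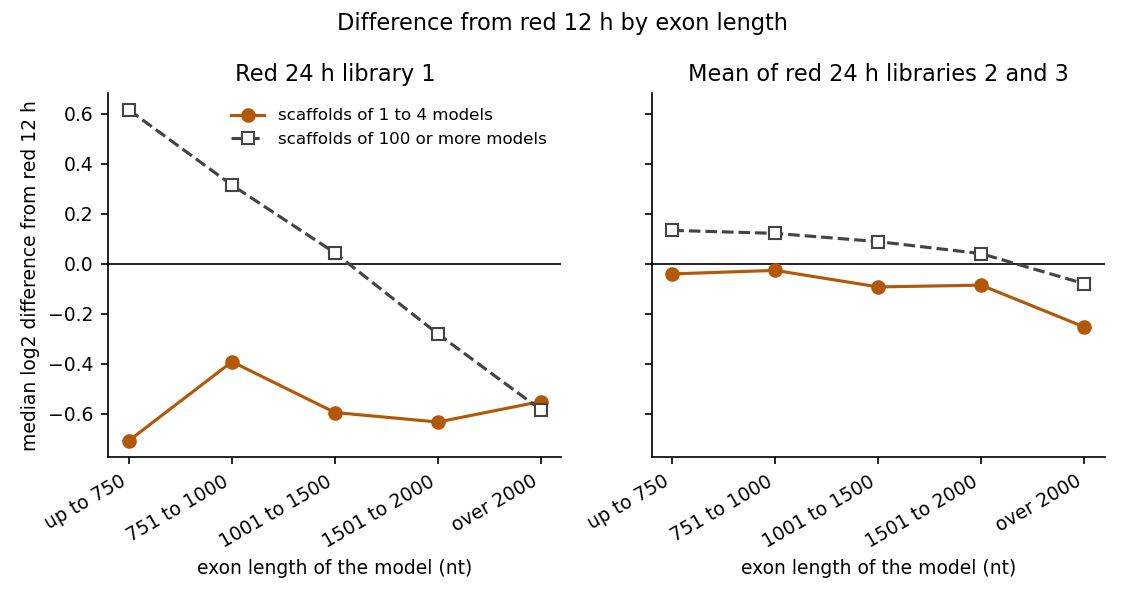
Median log2 difference from the mean of red 12 h, by exon length of the model, in red 24 h library 1 (left) and in the mean of red 24 h libraries 2 and 3 (right), for models on scaffolds of 1 to 4 models (filled circles) and of 100 or more (open squares). In library 1 the small-scaffold medians lie between -0.71 and -0.39 over the 5 bands, while the large-scaffold medians run downward with length between 0.61 and -0.58.

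Within the small scaffolds, the values in red 24 h library 1 went with which end of the model faced the scaffold end. This split was chosen after the data were seen. In 160 models the 3′ end is outward, which means that no other model lies between it and the end of the scaffold, and in 114 models the 5′ end is outward. Another 83 are alone on the scaffold, with both ends outward, and 22 lie between other models. Tested models with the 3′ end outward (n = 159) had a median log2 difference from red 12 h of -0.88 in library 1, with quartiles of -1.28 and -0.41. Those with the 5′ end outward (n = 113) had a median of 0.03, with quartiles of -0.71 and 0.68. Models alone stood between them at -0.55, and models between others at -0.17.

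A fall of 2-fold or more in that library was found in 70 models with the 3′ end outward (44.0%), against 15 with the 5′ end outward (13.3%). On large scaffolds it was found in 1650 of 8334 models (19.8%). The exon lengths of both kinds were close, with medians of 939.5 nt for models with the 3′ end outward and 913.5 nt for those with the 5′ end outward. The difference was found on either strand: the medians were -0.97 for the 3′ end and 0.27 for the 5′ end outward on the plus strand, and -0.78 and -0.17 on the minus strand. Above 750 and up to 1500 nt the medians were -0.81 for the 3′ end and 0.27 for the 5′ end outward, and above 1500 nt -0.84 and -0.63. The first and last models of the 29 large scaffolds differed less, with a median of -0.07 for 27 models with the 3′ end outward and 0.06 for 26 with the 5′ end outward.

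The other libraries showed less of this split. The median log2(FPKM + 1) of models with the 3′ end outward, less that of models with the 5′ end outward, was -1.15 in red 24 h library 1 and -0.37 to -0.02 in the other 14 libraries. Of those 14, red 24 h libraries 2 and 3 were the lowest, at -0.351 and -0.374, and the other groups ran from -0.273 to -0.016. The value was below 0 in 15 of 15. In the mean of red 24 h libraries 2 and 3 the difference from red 12 h had a median of -0.11 for the 3′ end outward and -0.01 for the 5′ end outward. Of the 75 lower calls in red 24 h against red 12 h, 41 were among the 159 tested models with the 3′ end outward. Another 12 were among the 113 with the 5′ end outward, 17 among 81 alone and 5 among 21 between others. Over all models 1518 of 9601 were lower (15.8%). Without library 1, 35 of the 159 tested models with the 3′ end outward were lower and 16 higher, and 13 of the 113 with the 5′ end outward were lower and 12 higher. Over all 9601 models 1310 were lower and 1655 higher in that setting. Red 24 h library 1 also had the shortest mean fragment, 128.6 nt, against 135.5 to 148.0 nt in the other 14 libraries. The part of fragment length in these values was not tested.

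**Figure D5:**
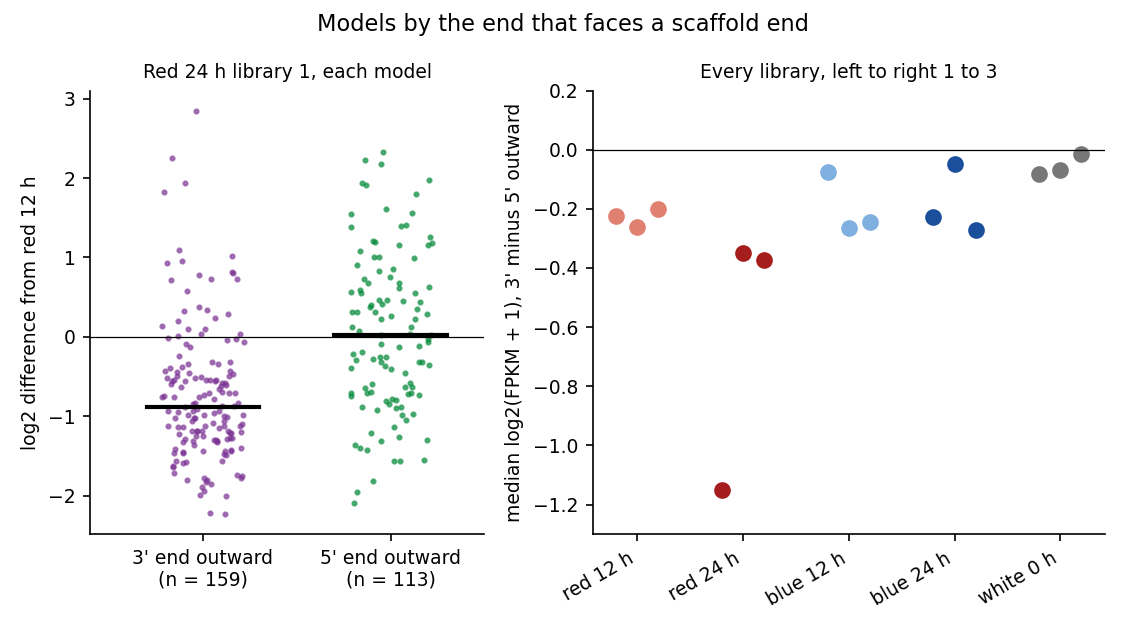
Left, log2 difference of red 24 h library 1 from the mean of red 12 h for each tested model with its 3′ end (n = 159) or its 5′ end (n = 113) toward the scaffold end, with medians of -0.88 and 0.03 as bars; the sideways scatter has no meaning. Right, the median log2(FPKM + 1) of models with the 3′ end outward less that of models with the 5′ end outward in each library, which is -1.15 in red 24 h library 1 and -0.37 to -0.02 in the other 14.

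Neighbouring models on small scaffolds were further apart than those on large ones and were about as often unlike in level. The 159 pairs of adjacent small-scaffold models lay a median of 248 nt apart, against 120 nt for 8419 pairs on large scaffolds, and 0 pairs overlapped in either set. Of the small-scaffold pairs 39.0% shared a strand, 23.3% pointed toward each other and 37.7% away from each other, against 31.9%, 34.1% and 34.1% on large scaffolds. The levels of the 2 models of a pair were at least 4-fold apart in 33.3% of small-scaffold pairs and in 33.7% of large-scaffold pairs. Where both models of a pair were called in red 12 h against white, 28 of 38 small-scaffold pairs (73.7%) went the same way, against 1868 of 2885 pairs on large scaffolds (64.7%). The count in red 24 h was 25 of 41 (61.0%), against 1787 of 2948 (60.6%). In blue 12 h it was 31 of 42 (73.8%), against 1895 of 2972 (63.8%), and in blue 24 h 24 of 36 (66.7%), against 1755 of 2712 (64.7%). On large scaffolds the red 12 h share was 73.3% for pairs pointing away from each other and 56.1% for those pointing toward each other. The part of orientation in the difference between the sets was not tested.

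The small-scaffold models with the highest mean level were scaffold00060.g2182, scaffold00008.g335 and scaffold00156.g5221. The first, alone on its scaffold (1 to 3498, plus strand, 10 exons, 2092 nt), ranked 18 of all 9756 models by mean FPKM. It had 2174, 2094 and 2244 FPKM in red 12 h, 2970, 2821 and 2443 in red 24 h, 2359, 2244 and 2185 in blue 12 h, 2200, 2358 and 2206 in blue 24 h, and 998, 1175 and 1307 in white 0 h. The 12 libraries of coloured light lay above the white ones, with red 24 h highest. The log2 difference from white was 1.25 ± 0.12 in red 24 h (limma adjusted p = 3.39e-07) and 0.97 ± 0.12 in blue 24 h (4.64e-06).

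The model scaffold00008.g335 (26 to 631, minus strand, 2 exons, 315 nt) went the other way. It had 548, 587 and 616 FPKM in red 12 h, 401, 949 and 834 in red 24 h, 719.7, 685 and 753 in blue 12 h, 803, 777 and 791 in blue 24 h, and 935, 995 and 1092 in white 0 h. Between red 12 h and white the log2 difference was -0.78 ± 0.22 (limma adjusted p = 0.00749), and red 24 h library 1 was the lowest of all 15 libraries. Its neighbour scaffold00008.g336 (746 to 2626, plus strand) averaged 29.4 ± 3.28 FPKM in red 12 h and 22.6 ± 3.45 in white 0 h.

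The model scaffold00156.g5221 (1 to 971, minus strand, 3 exons, 595 nt) had 580.1, 539.9 and 489.8 FPKM in red 12 h, 451, 719 and 563 in red 24 h, 612, 557 and 573 in blue 12 h, 647, 626 and 649.5 in blue 24 h, and 304, 413 and 398 in white 0 h. The 12 libraries of coloured light lay above the white ones. Blue 24 h lay above white by 0.80 ± 0.16 on the log2 scale (limma adjusted p = 0.000481). Its neighbour scaffold00156.g5222 (1449 to 2245, minus strand) averaged 17.0 ± 3.99 FPKM in blue 24 h and 12.9 ± 1.66 in white 0 h.

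The 5 small-scaffold models that did not meet the condition for testing were near 0 in every library. They are scaffold00016.g929, scaffold00016.g930 and scaffold00016.g933, the 3 models of 1 scaffold, and scaffold00029.g1524 and scaffold00216.g6318, each alone. The highest value in any library was 0.258, 0.211, 0.454, 0.250 and 0.575 FPKM, and each model was listed at 0 in 4 to 10 of the 15 libraries. No library held more than 3 fragments of any of them. The 3 models of scaffold00016 lie at 453 to 2161, 3556 to 5036 and 15861 to 17411 and have up to 6 exons.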

How the data were processed

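The authors deposited FPKM values, 1 table for each group with its 3 libraries as columns. A gene table (IMET v2, exon coordinates, source AUGUSTUS in its own columns) goes with them. TopHat, TopHat2 2.0.4 and Cufflinks 2.0.4 stand in the submitters' processing notes, while settings and a genome build are not given in the sources used here. Reads that match several places may be shared or lost, which bears on near-identical copies. Groups came from the labels. From the deposited FPKM, log2(FPKM + 1) was fitted with limma 3.58.1 in R 4.3.3 (1 mean per group, eBayes with a trend, all 15 libraries), over 9601 models with at least 1 FPKM in at least 3 libraries. Benjamini-Hochberg adjustment ran over all of them, two-sided, per comparison. Log2 differences of FPKM + 1 understate changes of low models.

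Fragments were recovered as FPKM times exon length less mean fragment length, divided by a library constant. In each library 100% of the low values (up to 30 fragments, effective length of at least 500 nt) came out whole within 0.1. They give counting depth only and served in 1 alternative, limma's voom.

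The members and lists were chosen with earlier results of these data known. Named models were, in each of 3 families of comparison (colour against white, blue against red, 24 h against 12 h), the 2 largest rises and 2 largest falls that passed, did not overlap and averaged at least 10 FPKM in a group compared. The 3 members with the highest mean and the scaffold neighbours of all these were added. Alternatives were no filter or one at 5 FPKM, a pseudocount of 0.1, 4 normalizations, a fit of the groups compared, a replicate block, eBayes without the trend, array weights, voom, exon lengths of at least 500 nt and leaving out each library. Leaving out red 24 h library 1 and white 0 h library 1 together, and the range above 750 and up to 1500 nt, were chosen after seeing the data. Python 3.11.15, numpy 2.4.6, pandas 2.3.3 and matplotlib 3.10.9 did the rest. No sequences were used, since no genome was at hand.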

Additional observations from a re-analysis of the deposited data

Results flagged for a closer look

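The models below differed between the colours, or in their change over time between the colours, in the test of that difference itself (limma on log2(FPKM + 1), adjusted over 9601 models). In blue 24 h against red 24 h the log2 differences were 1.39 in scaffold00210.g6057 (adjusted p = 0.00207), 1.23 in scaffold00126.g4161 (0.000201), -1.40 in scaffold00223.g6328 (5.01e-05) and -1.38 in scaffold00336.g9678 (0.00243). In blue 12 h against red 12 h they were -1.18 in scaffold00242.g6391 (adjusted p = 0.0364), -1.01 in scaffold00292.g8311 (0.00468), -0.91 in scaffold00212.g6061 (0.0406), -0.91 in scaffold00223.g6328 (0.004) and -0.86 in scaffold00320.g8869 (0.0314). All 3 blue libraries lay on 1 side of all 3 red ones in each difference at 12 h. The models given at 24 h were named by a rule that asked for no overlap, so theirs was fixed in advance. In a fit of the 2 groups alone the 24 h calls were lost, except that of scaffold00223.g6328.

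The interaction of light and time by limma was -1.63 in scaffold00336.g9678 (adjusted p = 0.0206), -1.43 in scaffold00012.g926 (0.0380), 1.37 in scaffold00210.g6057 (0.0499), 1.43 in scaffold00065.g2189 (0.0464) and 2.08 in scaffold00045.g2113 (0.0176). Red 24 h library 1, which stands apart from its group, enters each of these 5 values. Without it they were -1.23, -1.70, 1.72, 1.07 and 1.82.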

How the results depend on the processing

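Across 28 alternatives the small-scaffold counts against white ran from 148 to 273 in red 12 h, 114 to 313 in red 24 h, 159 to 276 in blue 12 h and 139 to 272 in blue 24 h. The largest departures were array weights (273, 313 and 272 in red 12 h, red 24 h and blue 24 h) and, in red 24 h, a fit of the groups compared (114). In blue 12 h against red 12 h the count of 5 became 15 with the length trend removed. It became 12 by quantile normalization and at the same median, 68 in a fit of the groups compared, 81 with array weights and 9 by voom. Without red 24 h library 1 and white 0 h library 1 together it became 54. Without single libraries it was 2 to 39. In blue 24 h against red 24 h the count of 34 became 66 with the length trend removed and 1 in a fit of the groups compared. It became 260 with array weights, 54 by voom, 80 without the same pair of libraries, and 13 to 139 without single libraries. In red 24 h against red 12 h the count of 90 became 4 in a fit of the groups compared, 274 with array weights, and 43 to 168 without single libraries. In blue 24 h against blue 12 h the count of 19 became 31 by quantile normalization and with the length trend removed. It became 35 at the same median, 118 in a fit of the groups compared and 129 with array weights. Without the same pair of libraries it became 104, and without single libraries 5 to 88. The interaction count of 5 became 2 with a pseudocount of 0.1, 11 with the length trend removed and 12 by quantile normalization. It became 8 at the same median, 1 in a fit of the groups compared and 168 with array weights. Without the same pair of libraries it became 43, and without single libraries 0 to 44. In all 28 alternatives of the 4 comparisons with white the small-scaffold share called was below that of all models. It was also below in 28 for blue 12 h against red 12 h and blue 24 h against blue 12 h. For red 24 h against red 12 h it was below in 27. For blue 24 h against red 24 h and for the interaction it was below in 26. With the length trend removed, blue 24 h against red 24 h had 17.6% on small scaffolds and 22.4% over all models. The interaction then had 2.94% and 5.94%. The gap in level was -0.49, -0.51 to -0.45 over the other alternatives and -0.96 over models above 750 and up to 1500 nt. With the replicate block 3 models passed in the interaction and 17 in blue 24 h against blue 12 h. Of 30 same-number correlations of deviations, which ran from -0.06 to 0.15, 2 were over 0.1. Both were between red 12 h and red 24 h, at 0.147 and 0.13. Such values in groups of 3 cannot settle whether libraries of the same number shared a culture. No direction of a named model reversed. Other causes of these differences were not tested. The median small-scaffold model rested on 80 fragments per library, and the part of that depth in the number of calls was not tested.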
